A study of Mus musculus with 8 samples.

Results

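The 8 genes described here encode secreted defence proteins of Paneth cells: the lysozyme gene Lyz1, the alpha-defensin genes Defa3, Defa17, Defa22 and Defa24, the angiogenin gene Ang4, the intelectin gene Itln1 and the mucosal pentraxin gene Mptx2. They were chosen by symbol, and all 8 were found among the 48413 gene rows used. RNA was measured in small intestine adenomas of C57BL/6 background mice, all heterozygous for ApcMin, a truncating allele of the Wnt pathway inhibitor gene Apc that gives rise to intestinal polyps. In the tested genotype, ApcMin/+/14-3-3σ-/-, called knockout below, both copies of Sfn, the gene of 14-3-3σ, were lost as well (4 adenomas, mice aged 144 to 148 days). The other genotype was ApcMin/+ with Sfn intact (4 adenomas, mice aged 256 to 282 days), so age and genotype cannot be told apart. Whether the deletion was confined to a cell type is not given in the sources used here.

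Paneth cells sit at the base of small intestinal crypts beside the stem cells and release granules of antimicrobial protein into the crypt lumen. Their maturation depends on Wnt signalling, the pathway that loss of Apc switches on. Alpha-defensins, called cryptdins in mice, are short peptides held together by disulphide bonds that are made as inactive precursors and, in mice, are cut to the active form by the protease matrilysin, the product of Mmp7. Lysozyme cleaves the bacterial cell wall, angiogenin 4 is a ribonuclease relative that kills bacteria, and intelectin 1 binds sugars of microbial surfaces. Mptx2, a pentraxin gene, marks mouse Paneth cells. Ang4 and Itln1 can also be made by goblet cells.

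The deposited values are normalised read counts after RUVs, a method that subtracts unwanted factors estimated among replicates. They summed to between 36241013 and 38957213 in the knockout libraries and between 34182800 and 46707800 in the ApcMin/+ libraries, and the depth before normalisation is unknown. Values are given for the knockout libraries in the order unnumbered library, replicates 2, 3 and 4, and for the ApcMin/+ libraries in the order of replicates 1 to 4. The sheet names 1 knockout column with the number of an ApcMin/+ adenoma, so that library is called unnumbered and only its genotype was used. The deleted gene Sfn stood at 1, 0, 0 and 1 in the knockout libraries, against 14607, 6585, 6989 and 15968 in the ApcMin/+ libraries, as labelled. The unnumbered knockout library and ApcMin/+ replicates 2 and 3 had an Xist level above 1000, and the other 5 libraries were at 18 or below. Ddx3y, a gene of the Y chromosome, was at 0, 0 and 2 in the libraries with high Xist and at 1435 to 2132 in the other 5. The split by Xist thus follows the sex of the mice, which is unbalanced between the genotypes. ApcMin/+ replicates 3 and 4 carry another prefix in their library names than the other 6, taken here as the sequencing order. Of the 6 directions in which replicates can differ, 1 had almost no variation left, mainly ApcMin/+ replicates 1 and 2 against 3 and 4, so the mean of the first pair lies close to that of the second by construction. For Ang4, for example, the pair means were 10.48 and 10.29 on the log2(value + 1) scale. Because of this, few patterns of high and low ApcMin/+ replicates are possible, and unrelated genes can share one.

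The defensin genes are related copies on chromosome 8, some of them near-identical, so how much sequence they share is shown before their values. In the GENCODE transcripts of GRCm38, 93.2% of the 31-base words of Defa17 (chr8:21655780-21656735, plus strand) also occurred in another gene, and 92.6% of those of Defa3 (chr8:21287409-21288377, plus strand). Their coding sequences, of 279 bases each, were identical. Defa24 (chr8:21734494-21735471, plus strand) shared 57.1% of its words, with Defa30 as the closest gene at 46.3%, and its coding sequence was 95.7% identical to that of Defa17. Defa22 (chr8:21162277-21163249, plus strand) shared 91.8% of its words, 83.8% with Defa21 alone, and its coding sequence was 81.3% identical to that of Defa24. The last 105 coding bases before the stop codon, where the active peptide of the precursor lies, are printed 5′ to 3′ with bases that differ from Defa24 in capitals, because they show which of these genes sequencing reads can tell apart.
Defa24: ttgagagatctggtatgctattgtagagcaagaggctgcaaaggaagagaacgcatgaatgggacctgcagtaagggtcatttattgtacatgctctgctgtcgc
Defa17: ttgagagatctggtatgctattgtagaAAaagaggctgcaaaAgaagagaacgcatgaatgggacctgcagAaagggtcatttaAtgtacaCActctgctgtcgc
Defa3: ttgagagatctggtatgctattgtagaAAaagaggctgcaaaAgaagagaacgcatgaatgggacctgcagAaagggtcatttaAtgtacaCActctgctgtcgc
Defa22: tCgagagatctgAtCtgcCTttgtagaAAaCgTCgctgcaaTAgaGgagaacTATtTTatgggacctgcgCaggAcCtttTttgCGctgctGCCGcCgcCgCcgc
Each stretch lies within a single exon: chr8:21735270-21735374 for Defa24, chr8:21656534-21656638 for Defa17, chr8:21288176-21288280 for Defa3 and chr8:21163048-21163152 for Defa22, all on the plus strand. Defa17 and Defa3 both carried G28A, C29A, G43A, T72A, T85A, T92C and G93A relative to Defa24, with positions counted from 1 at the first printed base. Defa22 was aligned to Defa24 with gaps, and 35 alignment columns differed. How the authors assigned reads that match several genes is not given in the sources used here, so the split between Defa3 and Defa17, and between Defa21 and Defa22, is uncertain.

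**Figure D1:**
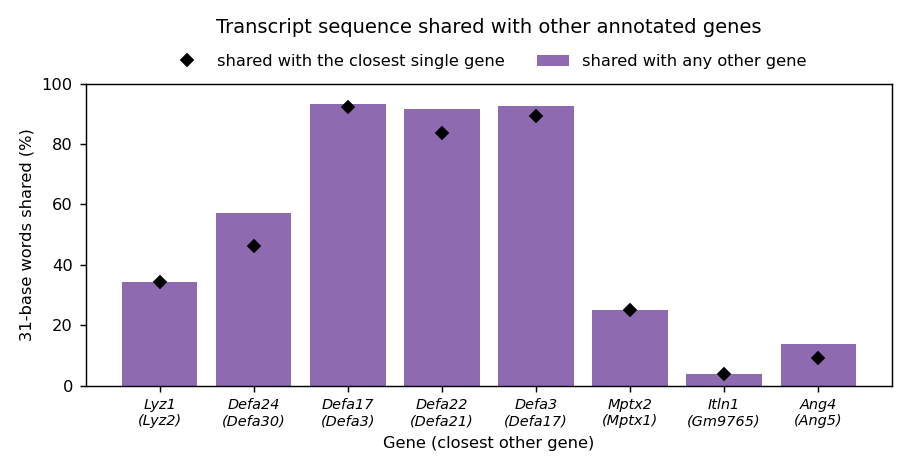
Percentage of each gene's distinct 31-base words that occur in the transcripts of any other annotated gene (bars) and in the closest single gene (diamonds, gene in brackets). Defa17, Defa3 and Defa22 share over 91% of their words, whereas Itln1 shares 3.80% and Ang4 13.8%.

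The other 4 genes have more sequence of their own. Lyz1 (chr10:117287797-117292868, minus strand, 4 exons) shared 34.2% of its 31-base words, all with its neighbour Lyz2, the lysozyme gene of macrophages. Mptx2 (chr1:173274382-173277777, minus strand) shared 25.1% with Mptx1. Ang4 (chr14:51763878-51773590, minus strand, 2 exons) shared 13.8%, most of it with Ang5, and Itln1 (chr1:171518122-171535294, minus strand, 8 exons) shared 3.80%. Lyz2 and Mptx1 are therefore given beside Lyz1 and Mptx2.

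Per kilobase of annotated exon, Lyz1 had the highest level in both genotypes. Its mean normalised read count per kilobase was 38945 in knockout and 17052 in ApcMin/+ adenomas. In knockout adenomas it was followed by Defa24 at 18525, Defa17 at 15826, Itln1 at 10398, Mptx2 at 3640, Defa22 at 655, Ang4 at 530 and Defa3 at 363. In ApcMin/+ adenomas the order was Lyz1, Defa24 at 12289, Itln1 at 8668, Defa17 at 8406, Ang4 at 2319, Mptx2 at 2302, Defa22 at 372 and Defa3 at 151. Ang4 thus stood in 7th place in the knockout and in 5th place in the ApcMin/+ adenomas. In knockout libraries Itln1 (lowest 7104 per kilobase) lay wholly above Mptx2 (highest 5578), and Mptx2 (lowest 1869) above Defa22 (highest 1208), while all other neighbours in the order overlapped. In ApcMin/+ libraries every pair of neighbours overlapped. Of these 8 Paneth cell products, 7 stood at 37 or above in every library, and Defa3 was at 3 in ApcMin/+ replicates 2 and 4.

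Differences between genotypes were taken from a limma fit over 17523 genes on log2(value + 1), knockout minus ApcMin/+, with p-values adjusted by Benjamini and Hochberg over all of them and a threshold of 0.05. All 8 genes passed the filter on low values, which asked for 10 or more in any 4 libraries. None of the 8 passed, against 0.331% of all tested genes (58, of them 33 higher and 25 lower in the knockout, or 38 and 18 with scaling by median ratios and 40 and 20 with quantile normalisation). The count of 58 was 16, 20, 17 and 21 without the unnumbered knockout library and without knockout replicates 2, 3 and 4, and it was 329 and 130 without ApcMin/+ replicates 2 and 4. At an unadjusted limma p under 0.05, 2 of the 8 were called, Lyz1 and Ang4, against 18.9% of all tested genes. The same 2 genes had genotypes that did not overlap, against 16.1% of all tested genes. Of the 8 log2 differences 7 lay above 0 and 1 below, against 41.0% above 0 over all tested genes, and their median was 1.03, against -0.07 over all genes. A log2 difference of at least 1 was found for 4 of the 8, Lyz1, Defa3, Defa17 and Mptx2, against 2.71% of all tested genes. The 4 defensin genes share sequence, and Defa3 and Defa17 the whole coding sequence, so these counts do not rest on 8 separate measurements. The limma intervals of Defa3, Defa17 and Mptx2, given below, include 0. Their log2 SDs among ApcMin/+ libraries were 2.83, 1.17 and 1.86, against a median of 0.25 over all tested genes. So wide a spread makes a difference of 1 easier to reach by chance, and 2.71% is not a matched comparison. In tissue samples of this kind, a change in the number of Paneth cells and a change in RNA per cell cannot be told apart.

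**Figure D2:**
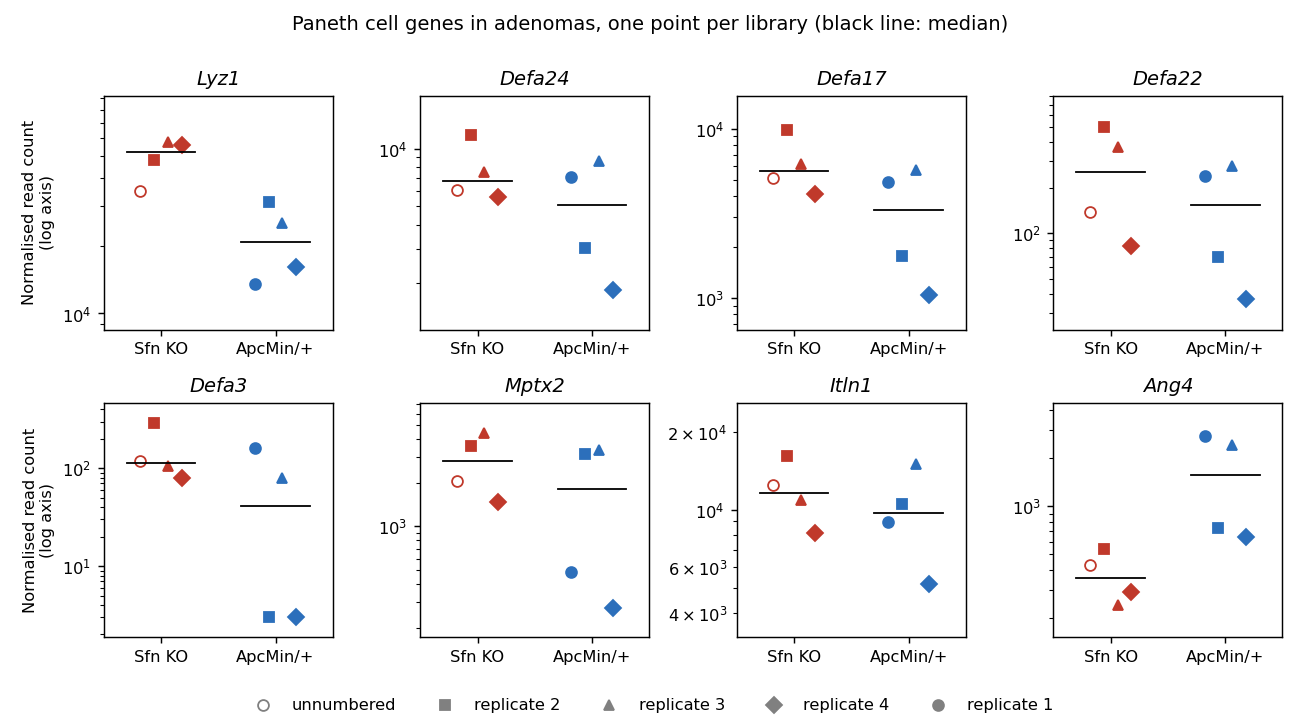
Normalised read count of each gene (log axis) in the 4 knockout libraries (red, left) and the 4 ApcMin/+ libraries (blue, right); each point is a library, with its replicate given by the symbol, and black lines are medians. Knockout libraries lie wholly above ApcMin/+ libraries for Lyz1 and wholly below for Ang4, and the genotypes overlap for the other 6 genes.

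Lyz1, which encodes the lysozyme of Paneth granules, was at 35051, 48013, 57724 and 55962 in the knockout libraries and at 13564, 31310, 25232 and 16042 in the ApcMin/+ libraries. Every knockout library lay above every ApcMin/+ library, as in 5.50% of all tested genes, although the lowest knockout library and ApcMin/+ replicate 2 lay close together. The means were 49188 ± 10328 in knockout and 21537 ± 8225 in ApcMin/+ adenomas (SD, n = 4 each). The log2 difference was 1.25 with a standard error of 0.30 (95% interval 0.57 to 1.92; limma adjusted p = 0.118), so it did not pass. Without ApcMin/+ replicate 2 it passed in limma at 1.45 (adjusted p = 0.0357), where 1.90% of all tested genes were called. In the 5 libraries with low Xist it passed at 1.86 (limma adjusted p = 0.00495), where 13.2% of all tested genes were called, and the ApcMin/+ libraries kept there, replicates 1 and 4, are those with the lowest Lyz1. The neighbouring gene Lyz2 had a log2 difference of 0.11 (limma adjusted p = 0.883), with 3546, 6652, 2565 and 2256 in knockout and 2370, 3988, 3196 and 3307 in ApcMin/+ libraries. Of 14 tested macrophage markers, 8 lay above 0 and 6 below, with a median of 0.06. Beside Lyz2 the most abundant were Csf1r, C1qa and C1qb, at 0.05, -0.09 and -0.02 (limma adjusted p 0.812 to 0.974), and the summed macrophage level was 8543 to 14762 in knockout and 8163 to 11210 in ApcMin/+ libraries.

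Defa24, the alpha-defensin gene with the highest level, stood at 6090, 11809, 7537 and 5612 in knockout libraries, against 7102, 3032, 8638 and 1825 in ApcMin/+ libraries. ApcMin/+ replicates 1 and 3 lay within the range of the knockout libraries and replicates 2 and 4 below it. Its means were 7762 ± 2819 in knockout and 5149 ± 3241 in ApcMin/+ adenomas (SD, n = 4 each), with a log2 difference of 0.79 (95% interval -0.33 to 1.91; limma adjusted p = 0.409). Defa17 was at 5083, 9783, 6178 and 4087 in knockout libraries and at 4813, 1771, 5725 and 1040 in ApcMin/+ libraries. The same ApcMin/+ replicates were high and low as for Defa24, and the log2 difference was 1.16 (95% interval -0.09 to 2.40; limma adjusted p = 0.290).

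Defa3, whose coding sequence equals that of Defa17 as printed above, had far lower values. It was at 120, 290, 105 and 80 in knockout libraries and at 162, 3, 80 and 3 in ApcMin/+ libraries. The log2 difference of 2.62 (95% interval -0.21 to 5.46; limma adjusted p = 0.294) rested on ApcMin/+ replicates 2 and 4, since replicates 1 and 3 lay within or at the edge of the range of the knockout libraries. Defa3 made up 2.31%, 2.88%, 1.67% and 1.92% of the sum of Defa3 and Defa17 in knockout libraries, against 3.26%, 0.169%, 1.38% and 0.288% in ApcMin/+ libraries. With the pair summed, the values were 5203, 10073, 6283 and 4167 in knockout and 4975, 1774, 5805 and 1043 in ApcMin/+ libraries. The log2 difference of that sum was 1.17 (limma adjusted p = 0.291), close to that of Defa17 alone, so a separate, larger difference of Defa3 cannot be read from the sheet.

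Defa22, a member of the second sequence group, was at 138, 506, 371 and 83 in knockout libraries and at 239, 70, 278 and 37 in ApcMin/+ libraries. Knockout replicate 4 lay near the low ApcMin/+ replicates 2 and 4, and the genotypes overlapped over most of their range. The log2 difference was 0.90 (95% interval -0.88 to 2.69; limma adjusted p = 0.555). Summed with its close copy Defa21, the values were 326, 802, 627 and 239 in knockout and 431, 113, 533 and 54 in ApcMin/+ libraries, a log2 difference of 1.19 (limma adjusted p = 0.413).

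The sheet holds 44 defensin rows by symbol or by the list used here, of which 17 were at 0 in all 8 libraries and 19 were tested, 4 of them the genes above. Of the other 15, Defa-ps6, a pseudogene by its symbol, was in no list. The sum of the defensin rows was 17146, 33379, 23128 and 14515 in knockout libraries, against 20241, 6960, 25991 and 3830 in ApcMin/+ libraries. Defa17 and Defa24 made up 59.3% to 66.8% of that sum in knockout and 55.3% to 74.8% in ApcMin/+ libraries. Of the other alpha-defensin and cryptdin-related genes, 61 were listed, 25 were in the sheet and 14 were tested. All 14 tested had a log2 difference above 0, with a median of 1.09, 0 passed over all genes tested and 0 had genotypes without overlap. Because these rows share sequence with each other and with the 4 genes above, they are not separate measurements. The most abundant were Gm15284 (log2 difference 0.62), Defa-rs7 (0.98), Gm14850 (1.23), Defa20 (1.54), Gm7861 (0.90) and AY761184 (1.15), with limma adjusted p between 0.312 and 0.644. Defa20 ranged from 273 to 1026 in knockout and from 19 to 1160 in ApcMin/+ libraries. Its lowest library was ApcMin/+ replicate 4 and its highest ApcMin/+ replicate 3, so both extremes lay in the same genotype.

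Mptx2 was at 2056, 3591, 4429 and 1484 in knockout libraries and at 485, 3163, 3389 and 275 in ApcMin/+ libraries. Unlike the defensins, it was high in ApcMin/+ replicates 2 and 3 and low in replicates 1 and 4. The normalisation leaves few such patterns possible, as described above. Replicates 2 and 3 are the ApcMin/+ libraries with high Xist. The log2 difference was 1.27 (95% interval -0.64 to 3.17; limma adjusted p = 0.436). Without ApcMin/+ replicate 4 it was 0.61 and without ApcMin/+ replicate 3 it was 1.81 (limma adjusted p 0.633 and 0.203). In the 5 libraries with low Xist it passed at 2.97 (limma adjusted p = 0.0125), but 13.2% of all tested genes were called there, and the ApcMin/+ libraries kept are replicates 1 and 4, in which Mptx2 is low. The related gene Mptx1 stood at 1, 0, 1 and 0 in knockout and at 13, 5, 25 and 1 in ApcMin/+ libraries, too low to be tested. The mean log2 level of 24 absorptive enterocyte markers lay between 13.33 and 13.81 in knockout libraries, and was 13.71, 12.03, 12.26 and 13.61 in ApcMin/+ libraries, lowest in the replicates in which Mptx2 was high. Of the 24 markers 21 had a log2 difference above 0 and 3 below, with a median of 0.62 and 0 passing. The most abundant, the apolipoprotein genes Apoa4, Apoa1 and Apob and the brush border gene Vil1, had log2 differences of 0.94, 0.60, 0.57 and 0.05 (limma adjusted p 0.340 to 0.935). The summed enterocyte level was 541923 to 810984 in knockout and 276827 to 872088 in ApcMin/+ libraries, and its part in these results was not tested.

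Itln1, the intelectin gene, had the smallest difference between genotypes of the 8. It was at 12384, 16089, 10877 and 8106 in knockout libraries and at 8976, 10473, 14972 and 5142 in ApcMin/+ libraries. The ranges overlapped almost wholly, with ApcMin/+ replicate 4 alone below the knockout libraries. The log2 difference was 0.32 (95% interval -0.43 to 1.07; limma adjusted p = 0.625).

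Ang4 went against the other 7 genes. It was at 427, 544, 242 and 289 in knockout libraries and at 2774, 730, 2430 and 643 in ApcMin/+ libraries. Every knockout library lay below every ApcMin/+ library, as in 10.6% of all tested genes, with knockout replicate 2 and ApcMin/+ replicate 4 the closest. The means were 375.5 ± 137 in knockout and 1644 ± 1115 in ApcMin/+ adenomas (SD, n = 4 each). The log2 difference was -1.90 with a standard error of 0.52 (95% interval -3.09 to -0.70), which is 0.268 of the ApcMin/+ level, and the limma adjusted p was 0.138, so it did not pass. A difference this low or lower was found in 0.576% of all tested genes. Its relative Ang, another angiogenin gene, was at 292, 370, 237 and 320 in knockout and at 584, 375, 511 and 432 in ApcMin/+ libraries, again without overlap, with a log2 difference of -0.64 (limma adjusted p = 0.161). Rnase4, the ribonuclease gene that neighbours Ang, had a log2 difference of -0.18 (limma adjusted p = 0.536), and the ribonuclease genes Rnase1 and Rnase6 had 0.25 each (limma adjusted p 0.653 and 0.787).

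**Figure D3:**
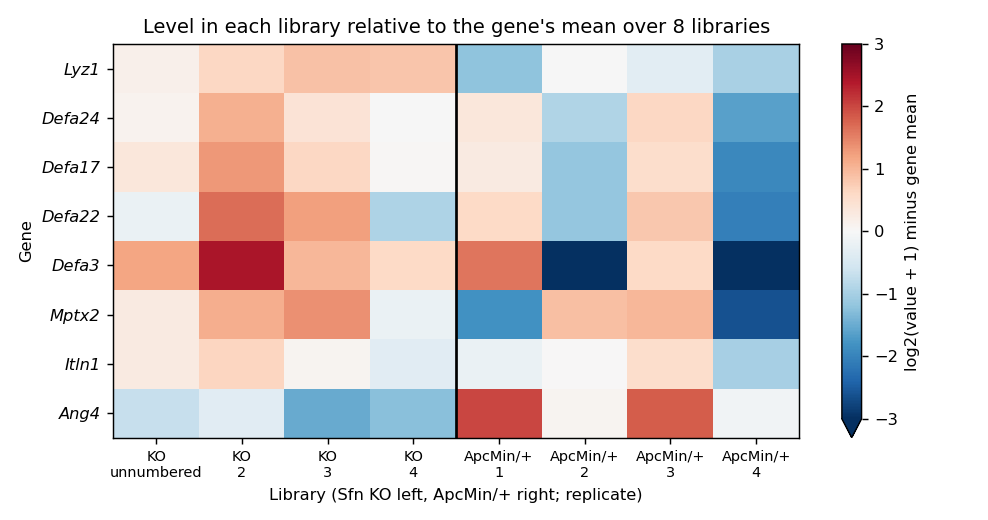
Level of each gene in each library relative to its own mean over the 8 libraries, on the log2(value + 1) scale (red above, blue below; colours end at 3 and -3), knockout libraries left of the line. All 4 defensin rows are blue in ApcMin/+ replicates 2 and 4, and Ang4 is the only row that is blue in all 4 knockout libraries.

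Within the ApcMin/+ libraries Ang4 was high and low in the same replicates as the defensins: replicates 1 and 3 were high and replicates 2 and 4 low. The mean of replicates 1 and 2 lies close to that of 3 and 4 by construction. A shared pattern of high and low replicates is therefore partly set by the normalisation. The within-library ratio of Ang4 to Defa17, as log2((Ang4 + 1)/(Defa17 + 1)), was -3.57, -4.17, -4.67 and -3.82 in knockout libraries, against -0.79, -1.28, -1.24 and -0.69 in ApcMin/+ libraries. The ApcMin/+ ratios lay close together, although Defa17 itself differed 5.50-fold and Ang4 4.31-fold between the highest and lowest ApcMin/+ library. The SD of the ratio was 0.48 in knockout and 0.30 in ApcMin/+ libraries (n = 4 each), and the difference of the means was -3.06 on the log2 scale.

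The ratio of Ang4 to Defa24 was -3.83, -4.44, -4.96 and -4.27 in knockout libraries and -1.36, -2.05, -1.83 and -1.50 in ApcMin/+ libraries, a difference of -2.69. For Lyz1 the difference of ratios was -3.14, for Mptx2 -3.17, for Defa22 -2.80, for Itln1 -2.22 and for Defa3 -4.52. The genotypes did not overlap in any of the 7 ratios. The exact permutation test, two-sided, gave p = 0.0286 for each, which is the lowest value possible with 70 arrangements (0.0286 after Benjamini-Hochberg adjustment over the 7 ratios). All 7 ratios contain Ang4, whose own values did not overlap. Ang4 was set against the others with its direction in these same values known, so separation was likely in advance. The p-values are therefore no separate support for its difference. For 43.1% of all tested genes the ratio of Ang4 to the gene lay wholly lower in the knockout. Normalisation among replicates leaves libraries that are not exchangeable, which can make these permutation p-values too small.

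**Figure D4:**
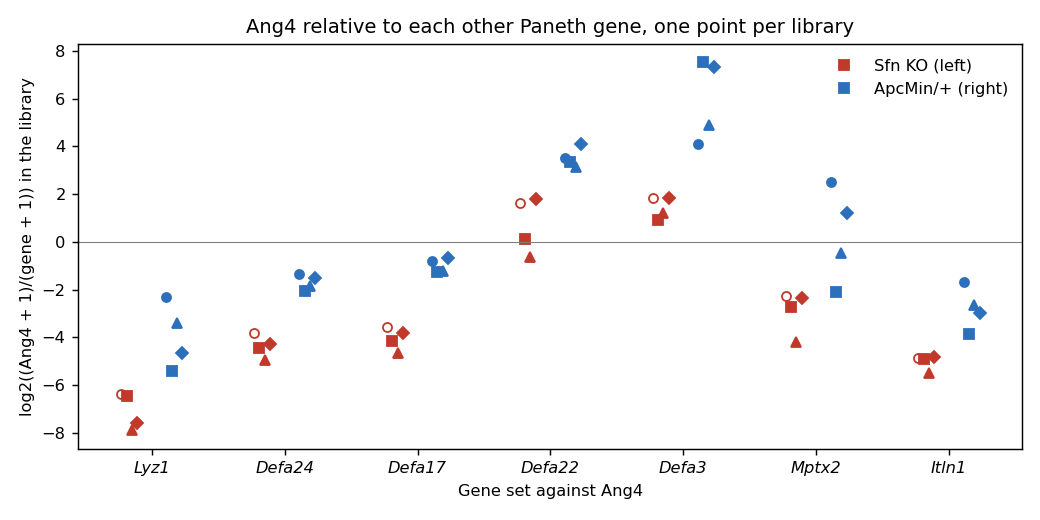
Within-library log2 ratio of Ang4 to each of the other 7 genes, with knockout libraries (red, left) and ApcMin/+ libraries (blue, right), one point per library and symbols by replicate. The red points lie below the blue points in all 7 pairs, and the ApcMin/+ points lie closest together for Defa17, between -1.28 and -0.69.

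All 8 genes varied more among the ApcMin/+ than among the knockout libraries, as did 61.8% of all tested genes. The SD on the log2 scale was 0.48 in knockout and 1.05 in ApcMin/+ libraries for Defa24, 0.54 and 1.17 for Defa17, and 0.72 and 1.86 for Mptx2. Over all tested genes the median SD was 0.19 in knockout and 0.25 in ApcMin/+ libraries, below the SD of each of the 8 genes in the same genotype. 

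Among other secreted Paneth and crypt genes, 25 were tested (2 of them also in the defensin list), 17 with a log2 difference above 0 and 8 below, with a median of 0.25, and 0 passed. Mmp7, whose protease activates alpha-defensins in mice, stood at 10610, 20402, 10959 and 11915 in knockout libraries and at 6717, 9628, 9355 and 7244 in ApcMin/+ libraries. Every knockout library lay above every ApcMin/+ library, as in 5.50% of all tested genes. The log2 difference was 0.67 (95% interval 0.14 to 1.20; limma adjusted p = 0.188). Of the 25 tested genes, 2 lay wholly above in the knockout and 0 wholly below. The lectin genes Reg3b and Reg3g had log2 differences of 1.25 and 0.82 (limma adjusted p 0.231 and 0.376). Dmbt1, a mucosal glycoprotein gene, and Cd24a, a surface marker of crypt base cells, were at 0.07 and 0.11 (limma adjusted p 0.958 and 0.728). Of 19 factors of the Paneth and secretory lineage, 10 lay above 0 and 9 below, with a median of 0.05, and 0 passed. Sox9, a transcription factor that Paneth cells need, had a log2 difference of -0.31, Xbp1, a regulator of the secretory apparatus, of 0.05, Rab2a, a gene of secretory vesicle traffic, of -0.04, and Ephb3, a receptor that positions Paneth cells, of -0.05 (limma adjusted p 0.247, 0.876, 0.894 and 0.859).

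**Figure D5:**
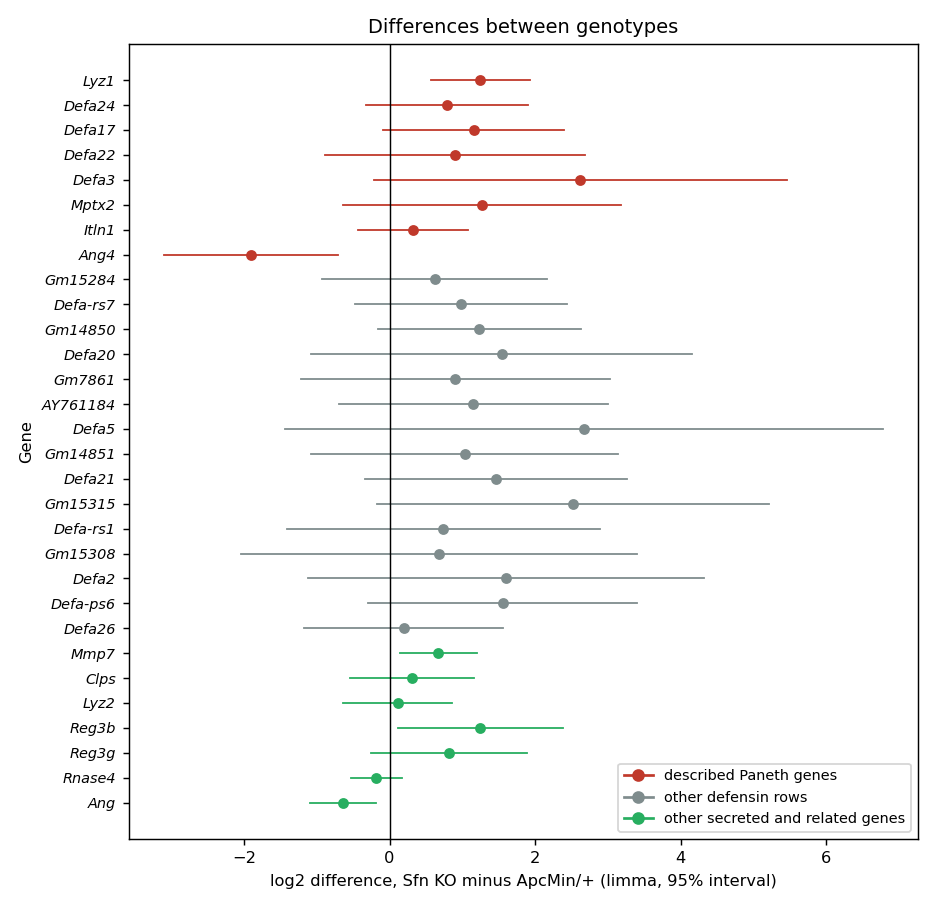
Log2 difference between knockout and ApcMin/+ adenomas with its 95% interval from limma, for the 8 genes (red), the other tested defensin rows (grey) and further secreted or related genes (green). Intervals of the defensin rows all reach below 0, that of Lyz1 (0.57 to 1.92) lies above 0 and that of Ang4 (-3.09 to -0.70) below it.

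Markers of other cell types give the setting of these values. Of 20 goblet cell markers 12 lay above 0 and 8 below, with a median of 0.14 and 0 passing, and their summed level was 328919 to 387926 in knockout and 197755 to 516292 in ApcMin/+ libraries. The most abundant of them, the mucus genes Fcgbp, Muc13, Muc2 and Zg16, had log2 differences of 0.25, 0.14, 0.39 and 0.49 (limma adjusted p 0.458 to 0.861). Clca1, a goblet cell product, was at 9799, 7175, 4145 and 7323 in knockout and at 92172, 8469, 28794 and 25053 in ApcMin/+ libraries, a log2 difference of -2.01 (limma adjusted p = 0.164), and its genotypes overlapped. All 12 tested tuft cell markers lay below 0, with a median of -0.94 and 0 passing, and 9 had genotypes without overlap, the knockout below, as in 10.6% of all tested genes. A log2 difference above 0 was found for 41.0% of all tested genes. The most abundant tuft markers, Avil, Dclk1, Ptgs1 and Trpm5, had log2 differences of -0.42, -0.85, -0.02 and -0.46 (limma adjusted p 0.151 to 0.953). The summed tuft level was 11682 to 14914 in knockout and 16792 to 20192 in ApcMin/+ libraries, in the same direction as Ang4. Of 11 tested neutrophil markers 10 lay above 0, with a median of 1.68 and 0 passing, and 8 had genotypes without overlap, the knockout above, as in 5.50% of all tested genes. The most abundant, Ltf, Lcn2, Mmp9 and S100a9, had log2 differences of -0.47, 0.54, 0.79 and 1.68 (limma adjusted p 0.138 to 0.356). The summed neutrophil level, in which the most abundant genes weigh most, was 13914 to 26244 in knockout and 15575 to 17833 in ApcMin/+ libraries. Unlike that sum, the mean log2 level of the tested neutrophil markers did not overlap. It was 8.04, 9.25, 8.26 and 8.98 in knockout and 6.57, 7.43, 6.67 and 7.70 in ApcMin/+ libraries. Of 15 stem and crypt markers 8 lay above 0 and 7 below, with a median of 0.05, and the most abundant, Prom1, Nkd1, Notum and Slc12a2, were at -0.25, -0.04, -0.12 and 0.16 (limma adjusted p 0.390 to 0.954). The part of these cell types in the differences of Lyz1 and Ang4 was not tested.

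In the enteroendocrine list 3 of 15 markers lay above 0 and 12 below (median -0.36), and Cpe, a prohormone-processing enzyme gene, fell by 0.78 (limma adjusted p = 0.0478). Cpe did not pass without any single knockout library (limma adjusted p 0.0953 to 0.181) or without ApcMin/+ replicate 1 or 3 (0.0512 and 0.0563). It also did not pass with either other scaling (0.0698 and 0.0862), no filter or a filter of 50 (0.0554 and 0.0512), sequencing order or Xist as a covariate (0.180 and 0.0778), in the 6 libraries of the shared order (0.133) or with array weights (0.665). The next most abundant, the hormone and granule genes Chgb, Chga and Gip, were at -0.60, -0.52 and -0.45 (limma adjusted p 0.266 to 0.416). Of 10 tested type 2 cytokine and induced epithelial genes 7 lay above 0 and 3 below (median 0.12), and Chil3, a chitinase-like gene, rose by 2.28 (limma adjusted p = 0.0294). Chil3 did not pass without any single knockout library (limma adjusted p 0.0862 to 0.132), with sequencing order as a covariate (0.125) or with array weights (0.309). Beside Clca1, the most abundant of that list, Il33, Il4ra and Il13ra1, were at 0.38, 0.02 and 0.46 (limma adjusted p 0.247 to 0.940). Of the pancreatic acinar genes 3 of 15 were tested (median -0.11), Cela1 at -0.36, Rnase1, which is also in the RNase A list, and Ctrl at -0.11 (limma adjusted p 0.305 to 0.900), and Ctrb1 was too low to be tested. Of the angiogenin and RNase A family 4 of 10 rows were tested, 2 on each side of 0. Of lysozyme, lectin and pentraxin relatives 5 of 12 rows were tested, 4 of them above 0, and the pentraxin genes Nptx2, Nptx1 and Ptx3 were at 0.72, 0.24 and 0.50 (limma adjusted p 0.240 to 0.790).

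Likeness to other genes was measured as the root mean square difference of gene-centred log2 values over the 8 libraries. The candidates were 13474 tested genes whose mean log2 value reached 5. The 8 genes and predicted-gene symbols, such as Gm and Rik, were left out of them. Defensin rows such as Gm14850 and Gm15284 were therefore not ranked. Of these candidates the closest to Defa24 were Pcdhb14 (0.26), Defa-rs7 (0.27), Clps (0.33), Postn (0.34) and Plagl1 (0.39). Outside the ranking, Defa17 was at 0.21 and Ang4 at 1.39. The genes closest to Ang4 were Tpsab1 (0.43), Siglecf (0.43), Lrmp (0.47), Psapl1 (0.50) and Alox5 (0.54). None of the other 7 Paneth genes was that near to Ang4, with Itln1 the closest at 1.25. Tpsab1, a mast cell tryptase gene, was at 33, 42, 21 and 35 in knockout and at 155, 72, 132 and 81 in ApcMin/+ libraries. It was high and low in the same ApcMin/+ replicates as Ang4. Siglecf, Lrmp, Psapl1 and Alox5 were likewise higher in ApcMin/+ replicates 1 and 3 than in 2 and 4. The normalisation leaves few such patterns possible. The genes closest to Lyz1 were Rpl14-ps1 (0.12), Nox4 (0.13), Ppbp (0.14), Col12a1 (0.15) and Zfp711 (0.16), with Itln1 at 0.69 and Defa24 at 0.84. These distances describe 8 libraries and were ranked over many genes.

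The RefSeq table of GRCm38.p6 holds a promoter for 5 of the 8 genes: Lyz1, Defa22, Ang4, Itln1 and Mptx2. The 250 bases before the start were searched on both strands for short words, with no overlap between the words found. The TCF/LEF word of Wnt signalling, CTTTGAT, occurs in 3.21% of 32851 promoters of that length. The TATA box, spelled TATAAA, occurs in 12.4% of them. A GATA factor word, AGATAA, occurs in 9.99% of them, and a STAT6 word, TTCNNNNGAA, in 5.85%. Defa22 held the TCF/LEF word starting 112 and 72 bases before the start and a TATA box starting 31 bases before it, and the other 4 promoters held none of the 4 words. Over all Defa genes in the table, 13 of 16 promoters held the TCF/LEF word and 15 of 16 the TATA box. The promoters of Defa22 (chr8:21162027-21162276, plus strand) and of Ang4 (chr14:51773591-51773840, minus strand) are printed 5′ to 3′, with the matched words in capitals. Defa22 is the only described defensin with a promoter in the table, and Ang4 is the gene that went against the rest. The levels of Defa22 overlapped between genotypes, and a link between these words and the levels was not tested.
Defa22: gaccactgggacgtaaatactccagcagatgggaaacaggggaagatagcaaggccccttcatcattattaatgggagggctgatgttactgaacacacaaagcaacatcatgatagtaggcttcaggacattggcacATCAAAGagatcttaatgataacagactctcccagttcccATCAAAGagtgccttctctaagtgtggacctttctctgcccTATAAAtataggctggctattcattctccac
Ang4: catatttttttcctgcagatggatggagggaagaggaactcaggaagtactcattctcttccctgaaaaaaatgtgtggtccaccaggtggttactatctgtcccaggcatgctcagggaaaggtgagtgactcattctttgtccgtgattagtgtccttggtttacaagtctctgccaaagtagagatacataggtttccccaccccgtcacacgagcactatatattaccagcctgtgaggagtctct
A match is a description of the letters and no match says only that these words are not in this window.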

How the data were processed

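RNA-seq of 8 adenomas was analysed. The authors deposited a sheet of 48440 rows of normalised read counts after RUVs, per the file headers, treated here as a score and not as raw counts. Total RNA went into strand-specific libraries, per the labels' protocols, and the submitters' processing notes name mm10 as the build. The sources used here do not give the aligner, counter, annotation or RUVs settings. Left out were 27 rows whose names had become dates, and 0 columns belonged to other samples.

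Genes with 10 or more in any 4 libraries were fitted with limma 3.58.1 in R 4.3.3 (lmFit, eBayes with trend) on log2(value + 1), which understates differences of low genes. Directions of the replicate deviations with a singular value under 0.1 of the largest, computed on the 12052 genes that had no value under 100, entered as covariates. There was 1, and 5 residual degrees of freedom remained. Ratios and Sfn were tested by exact permutation. Precision could not be given from depth, which is unknown. The labels give each adenoma its own number and an age, and p-values measure the spread between these samples. Positions and transcripts are from GENCODE M21 (GRCm38, which is mm10) and promoters from RefSeq. Protein identity was not computed, and identity of coding bases was used in its place.

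The fit was first tested on simulated data. It recovered 82 of 100 genes changed by 1 and 98 of 100 changed by 2 on the log2 scale, with 8 false calls. Both simulated genotypes had the spread of the knockout libraries, so the larger spread among ApcMin/+ libraries was not tested. The 8 genes and the lists were chosen with earlier results of these data known. Named are all 8 genes, the 4 most abundant measured members of each list (6 for defensins) and any member that passed. Also named are the 5 genes most like Defa24, Ang4 and Lyz1, with predicted-gene symbols left out. Mmp7, Mptx1, Defa21 and Defa-ps6 are named beside this rule. Alternatives were pseudocounts, filters, scalings, sequencing order, Xist, array weights, robust eBayes, leaving out libraries and, chosen after seeing the data, summed copies.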

Additional observations from a re-analysis of the deposited data

Results flagged for a closer look

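Of 32 sets of 4 libraries (each of the 8 genes, Sfn and each of the 7 ratios, in each genotype), 1 held a library far from the other 3. In the within-library log2 ratio of Ang4 to Itln1, knockout replicate 3 stood at -5.48, against -4.85, -4.88 and -4.81 in the unnumbered knockout library and knockout replicates 2 and 4. Its gap to the nearest library was 0.884 of the range of the 4, above Dixon's critical value for 4 values. Chance flags about 1 in 20 such sets.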

How the results depend on the processing

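Among 21 or 22 alternatives per gene, the 8 log2 differences kept their direction in all of them. They ranged from -2.25 to -1.55 for Ang4 (limma adjusted p 0.0580 to 0.665), from 0.70 to 1.52 for Defa17, from 0.38 to 1.14 for Defa24 and from 0.04 to 0.73 for Itln1, and none of these 4 passed, nor did Defa3 or Defa22 (0.37 to 1.40). Lyz1 passed without ApcMin/+ replicate 2 and in the 5 libraries with Xist below 1000 (1.86); leaving out 1 library gave 1.05 to 1.45. Mptx2 passed in the 5 libraries (2.97) and otherwise missed, with 0.61 to 1.81 when leaving out 1 library. The count of 58 called genes was 426 without the removed direction as a covariate, 18 with sequencing order as a covariate, 9 in the 6 libraries of the shared order, 13 with array weights (whose fit stopped before it converged) and 2198 in the 5 libraries with low Xist, and leaving out 1 library gave 16 to 329. Of the listed genes other than the 8, whose tested numbers are given by list above, 2 were called, against 0.331% of all tested genes. That count of 2 was 1 with no filter, a filter of 50, either scaling, the shared order or Xist as a covariate, and 0 with sequencing order or array weights. It was 13 without the removed direction and 39 in the 5 libraries, where 13.2% of all tested genes were called. Leaving out 1 library gave 0 to 14. The 14 came without ApcMin/+ replicate 2, where 1.90% of all tested genes were called. The cause was not tested.

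In the 6 libraries of the shared order, where the smallest permutation p is 0.0667, and in the 5 with low Xist, where it is 0.1, no permutation test can pass. There the difference was -12.76 and -13.57 for Sfn, and for the ratio of Ang4 it was -3.22 and -3.85 to Lyz1, -4.36 and -4.40 to Defa3, -3.02 and -3.47 to Defa17, -2.72 and -3.38 to Defa22, -2.67 and -3.13 to Defa24, -2.24 and -2.71 to Itln1 and -3.08 and -4.96 to Mptx2. Leaving out 1 library gave -3.64 to -2.60 for Lyz1, -5.14 to -4.00 for Defa3, -2.57 to -1.85 for Itln1 and -3.97 to -2.43 for Mptx2, with a permutation p of up to 0.0571. No paired analysis was possible because the replicate numbers only name libraries and 1 knockout column carries none. Near-identical defensin copies, unknown raw depth and the normalisation among replicates limit these values.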
